A study of Mus musculus with 2 samples.

Results

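The granzymes are the serine proteases that natural killer (NK) cells and cytotoxic T cells store in secretory granules and deliver into target cells. All 10 granzyme genes of the mouse that the array names were examined: Gzma, Gzmb, Gzmc, Gzmd, Gzme, Gzmf, Gzmg, Gzmk, Gzmm and Gzmn. They were represented by every probe set annotated to one of them, which gave 12 of the 45101 probe sets on the array. Of these, 11 were listed for a single granzyme and 1 was listed for both Gzme and Gzmd, and the shared probe set is given apart. Gzmd had 2 probe sets of its own and every other granzyme had 1, so for the detected granzymes no second probe set of the same gene was at hand.

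Both samples were sorted by flow cytometry from the liver of naive wild-type B6 mice through a gate for NK1.1 with CD3 excluded; one was DX5- (DX5-NK1.1+CD3-) and the other DX5+ (DX5+NK1.1+CD3-). The antibody DX5 binds the integrin alpha 2 chain, encoded by Itga2. Total RNA of each population was labelled with biotin and read on 1 Affymetrix expression array, so n = 1 per population, and how many mice gave the cells of each is not stated. Without replicates no ratio below could be tested, and every fold is a description of these arrays.

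Granzymes enter a target cell through pores made by perforin and cleave proteins there. Granzyme A cuts after basic residues and granzyme B after aspartate, which lets granzyme B start programmed cell death; granzyme M prefers methionine and leucine. The mouse carries several further granzymes, C to G and N, which lie in the same chromosomal cluster as the granzyme B gene and whose targets are less well known. Each granzyme is made as an inactive precursor, trimmed by a cathepsin and packed on the proteoglycan serglycin.

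Values are MAS5 intensities as deposited, on a linear scale. A probe set counted as detected where it reached 76.2 units for DX5- cells or 82.9 units for DX5+ cells, the 95th percentile of 148 probe sets for sensory receptors of smell and taste, opsins, lens crystallins and keratin-associated proteins. Log2 ratios are DX5- minus DX5+. The SD of the log2 ratio among probe sets of 1 gene was 0.34, taken over 4387 genes; it measures probe noise and leaves out differences between cell preparations. As the cells are a sorted mixture, fewer cells of a type and less RNA per cell cannot be told apart. Both samples gave signal for the NK marker Ncr1, which encodes the receptor NKp46 (2390 units in DX5- cells, 1788 in DX5+ cells). Of the detected NK marker genes 6 of 6 were within 2-fold, as were 9635 of all 10637 detected genes. For Klrb1c, which encodes NK1.1, the array named no separate probe set.

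Gzmc was the granzyme with the largest ratio. It read 13530 units in DX5- cells and 1098.5 units in DX5+ cells (probe set 1421256_at), which is 12.3-fold higher in DX5- cells. Both readings were well above the limits, at 178 times the limit in DX5- cells and 13.3 times the limit in DX5+ cells. Granzyme C is known to kill target cells in the mouse. The log2 ratio of 3.62 was 10.6 times the SD between probe sets of a gene and ranked 2 from the highest among 10637 detected genes.

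Gzmf, a close relative of Gzmc in the same cluster, also read higher in DX5- cells. It gave 402 units in DX5- cells and 93.2 units in DX5+ cells (1418679_at), 4.31-fold higher, with a log2 ratio of 2.11 at rank 65 from the highest. The DX5+ reading was only 1.12 times the limit. Under a stricter limit, the 99th percentile of those probe sets, that reading counted as not detected, and Gzmf was then at least 3.26-fold higher.

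Gzmk and Gzmm lay on the other side. Gzmk, a protease that cuts after basic residues and is found in memory T cells, read 86.2 units in DX5- cells and 284 units in DX5+ cells (1422280_at), 3.30-fold lower in DX5- cells. Its DX5- reading was 1.13 times the limit, so the stricter limit turned this into a bound of at least 2.01-fold lower. Gzmm read 161 units in DX5- cells and 435 units in DX5+ cells (1449501_a_at), 2.69-fold lower, and was detected on both arrays under either limit. The log2 ratios were -1.72 for Gzmk and -1.43 for Gzmm, at ranks 151 and 263 from the lowest.

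The granzymes for which NK cells are best known were nearly alike. Gzmb read 32230 units in DX5- cells and 32238 units in DX5+ cells (1419060_at), a log2 ratio of -0.00038 as deposited. Under median centring this ratio was 0.15 and under spike-in scaling 0.23. Gzma read 34866 units in DX5- cells and 38876 units in DX5+ cells (1417898_a_at), 1.12-fold lower, which is less than the SD between probe sets of a gene; its log2 ratio of -0.16 became 0.072 under spike-in scaling. These readings lay near the top of the scale, where the highest intensity of any probe set was 41554 for DX5- cells and 43870 for DX5+ cells. Among the 104 genes with a geometric mean of at least 20000 units, 1 was at least 2-fold apart (0.962%), and the median absolute log2 ratio was 0.13. Whether the scale was compressed at this height was not tested.

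The remaining granzymes were dim. Gzme read 91.2 units in DX5- cells and 144.6 units in DX5+ cells (1450171_x_at), 1.59-fold lower, both within 1.75 times the limits. Under the stricter limit its DX5- reading counted as not detected, and Gzme was then at least 1.02-fold lower. The probe set listed for Gzme and Gzmd together read 73.6 units in DX5- cells, below the limit, and 106 units in DX5+ cells (1421227_at), at least 1.39-fold lower. The suffix of the Gzme probe set marks probes that can also match other sequences, so neither value can be assigned to 1 gene with certainty.

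Gzmd, Gzmg and Gzmn were below the limit on both arrays and have no ratio. Gzmd gave 2.0 and 9.2 units in DX5- cells against 23.7 and 19.0 units in DX5+ cells on its 2 probe sets (1420343_at and 1420344_x_at). Gzmg gave 1.6 units in DX5- cells and 0.9 units in DX5+ cells (1422867_at). Gzmn, a granzyme known from the testis, gave 6.9 units in DX5- cells and 26.1 units in DX5+ cells (1425165_at). A reading below the limit does not show that a transcript was absent.

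**Figure D1:**
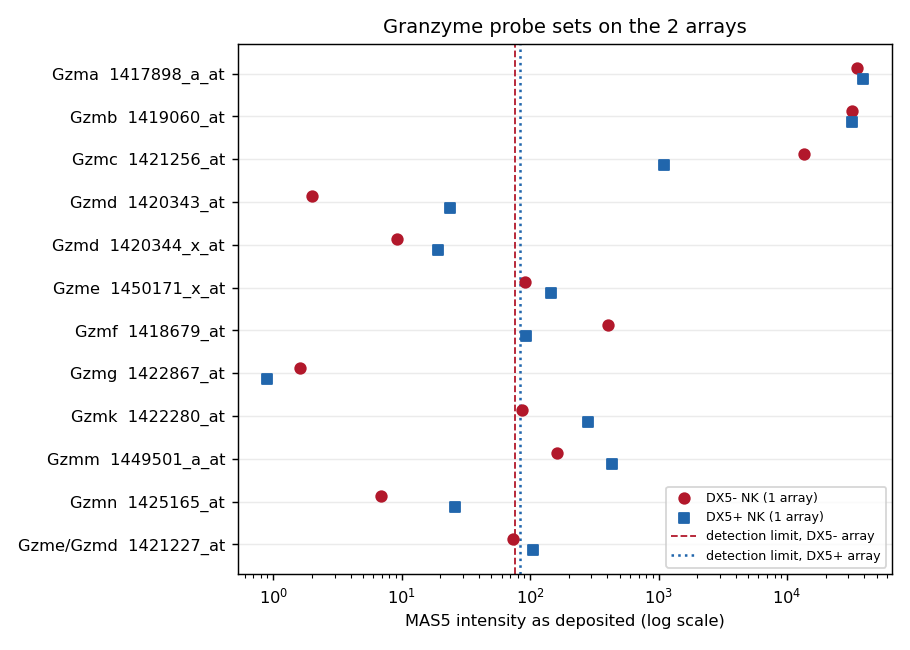
MAS5 intensity (log scale) of the 12 granzyme probe sets on the DX5- array (circles) and the DX5+ array (squares), with the detection limit of each array as a vertical line. Gzmc and Gzmf are further right for DX5- cells, Gzmk and Gzmm for DX5+ cells, the marks for Gzma and Gzmb nearly coincide, and Gzmd, Gzmg and Gzmn lie left of both limits.

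Counting own probe sets, 7 granzyme genes were detected. Of these, 2 read higher in DX5- cells by 2-fold or more, 2 read lower by as much, and 3 were within 2-fold. The same threshold was passed by 3.76% of all 10637 detected genes on the higher side and by 5.66% on the lower side, together 9.42%. When the arrays were centred on their medians the split over all genes turned to 574 higher and 439 lower, against 400 higher and 602 lower as deposited, and with spike-in scaling it was 718 higher and 384 lower. The spike-in controls, 18 probe sets for bacterial and phage transcripts that go into the hybridisation mix, had a median log2 ratio of -0.22. The 2 and 2 granzymes past 2-fold were the same in number under these scalings. The granzymes had a median log2 ratio of -0.16 and all detected genes one of -0.016, while the median absolute log2 ratio was 1.43 for granzymes and 0.31 for all detected genes.

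Dim genes were more often apart, so each granzyme was set beside genes of like intensity. Gzme, Gzmf, Gzmk and Gzmm fell among 2361 genes with a geometric mean of 100 to 300 units, of which 11.1% were 2-fold or more apart (3.9% higher and 7.16% lower in DX5- cells). Only 29 of those genes, Gzmf among them, were past 4-fold. Gzmc fell among 3453 genes of 1000 to 10000 units, of which 6.66% were 2-fold or more apart (3.07% higher and 3.59% lower).

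**Figure D2:**
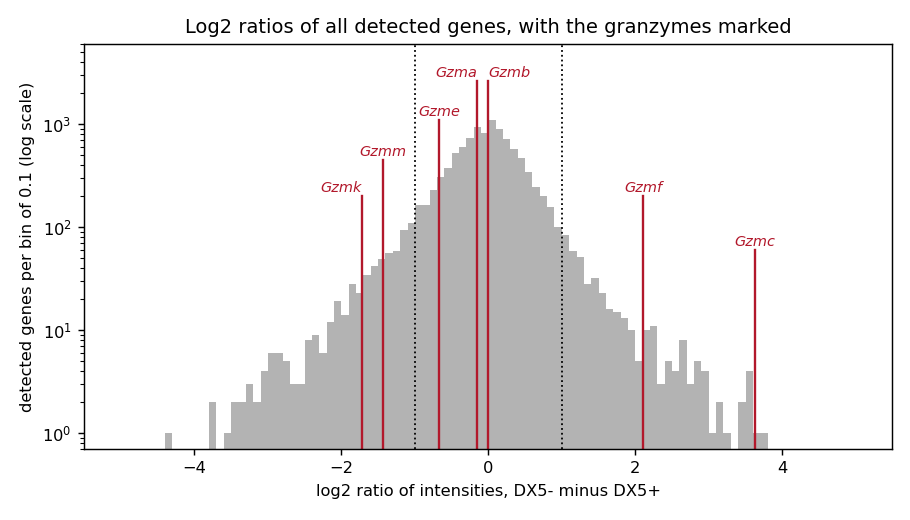
Number of detected genes (log scale) by log2 ratio of intensities, DX5- minus DX5+, in bins of 0.1, with the 7 detected granzymes as labelled lines whose height carries no value; the dotted lines mark 2-fold. Gzmc stands at 3.62 near the right end of the distribution, Gzmf at 2.11, Gzma and Gzmb at the centre, and Gzmk (-1.72) and Gzmm (-1.43) left of the lower line.

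The genes most like each granzyme were found by the distance between their pairs of log2 intensities. With only 2 arrays this measure has little power to separate genes, and it says nothing about shared control. Nearest to Gzmc were Cd3g, a chain of the CD3 complex (14036 units in DX5- cells and 1072 in DX5+ cells), Socs2, Cd7 and the chemokine receptor gene Cxcr6 (7425 units in DX5- cells and 772 in DX5+ cells). Nearest to Gzmf were Cdh17, Sh3pxd2a, Cd3e and Trgv4. Nearest to Gzmk were Mdm1, Idh1, Ube2c and Rab7b, and nearest to Gzmm were B3gnt7, Serinc5, Gipc2 and Adap1.

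As CD3 chains were among these neighbours, marker genes of other cells were read beside the granzymes. Of 9 detected T cell markers, 5 lay past 2-fold on the side of Gzmc and Gzmf, higher in DX5- cells, and 0 on the other side. Over all detected genes the shares were 3.76% higher and 5.66% lower. The 10 markers with a probe set summed to 25564 units in DX5- cells and 10895 units in DX5+ cells. Most of that gap came from Cd3g (14036 units in DX5- cells and 1072 in DX5+ cells). Cd28 read 7668 units in DX5- cells and 8442 in DX5+ cells, and Cd5 was 1.49-fold higher in DX5- cells. Cd4 was below the limit on both arrays, and the CD8 chains went opposite ways. Cd8a, the alpha chain, read 206 units in DX5- cells and 81.3 units, below the limit, in DX5+ cells, while Cd8b1, the beta chain, read 29.6 units in DX5- cells, below the limit, and 104 units in DX5+ cells. On the side of Gzmk and Gzmm, the 5 neutrophil markers summed to 3098 units in DX5- cells and 8149 in DX5+ cells, and the 5 macrophage markers to 342 units in DX5- cells and 809 in DX5+ cells. The neutrophil genes above a limit were S100a8 and S100a9; Elane, Mpo and Ctsg were below both limits, as were the macrophage genes Clec4f and C1qa. The 3 hepatocyte markers summed to 1199.6 units in DX5- cells and 1910.2 in DX5+ cells, with Ttr 2.22-fold and Alb 1.51-fold lower in DX5- cells. Mast cell and basophil markers, whose cells express proteases of the same family, summed to 1999 units in DX5- cells and 2590 in DX5+ cells; 6 of 9, among them Mcpt1, Mcpt2, Mcpt4 and Tpsb2, were below both limits. Most of both sums came from Kit, which read alike (1738.5 units in DX5- cells and 1738.9 in DX5+ cells), whereas Cpa3, the mast cell carboxypeptidase, read 108.5 units in DX5- cells and 504 units in DX5+ cells, 4.65-fold lower. The part of these cells in the granzyme ratios was not tested.

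Markers of both NK subsets were read as well, and the part of the subsets in the granzyme ratios was not tested. All 5 markers of resident NK cells of the liver and of ILC1, the type 1 innate lymphoid cells, lay past 2-fold on the higher side in DX5- cells, for example Itga1, the integrin alpha 1 chain, at least 12.1-fold. Of 6 markers of circulating NK cells 5 lay past 2-fold on the lower side, for example S1pr5, a receptor used in tissue exit, at least 20.1-fold. Among all detected genes 3.76% lay past 2-fold on the higher side and 5.66% on the lower side. The lists, that of T cells included, were chosen with earlier results of these data known. These counts are therefore a description and no independent check. The circulating list also holds Itga2, the target of the sorting antibody. Itga2 itself read 29.0 units in DX5- cells, below the limit, and 105 units in DX5+ cells.

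The granzyme genes lie at 3 places in the genome. In the RefSeq gene table (GRCm38.p6), Gzmm lies on chromosome 10, Gzma and Gzmk are next to each other on chromosome 13, and the other 7 form 1 cluster on chromosome 14 in the order Gzme, Gzmd, Gzmg, Gzmn, Gzmf, Gzmc, Gzmb. Some granzymes that are neighbours differed in ratio, whereas the neighbours Gzmf and Gzmc were both past 2-fold higher in DX5- cells. Gzma was within 2-fold while its neighbour Gzmk was 3.30-fold lower in DX5- cells. In the cluster, the start site of Gzmc lies 27.7 kb and that of Gzmf 50.9 kb from the start site of Gzmb. Both Gzmc and Gzmf read higher in DX5- cells, and Gzmb read alike. At the far end, 142 kb away, Gzme read 1.59-fold lower, from readings near the limits.

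Of 9 detected genes that flank the granzymes, up to 3 on each side of each place, 6 were measured in both populations and lay within 2-fold: Tpgs1, Cdc34, Bsg and Polrmt around Gzmm, Snx18 beyond Gzmk and Cenpj beyond Gzmb. Cdc20b and Mcpt8 passed the limit just in DX5+ cells, and Gpx8 alone lay past 2-fold, as did 9.42% of all detected genes. This peroxidase gene next to Gzma read 102 units in DX5- cells and 426 units in DX5+ cells, 4.17-fold lower in DX5- cells. Beyond Gzme lie the genes of cathepsin G and the mast cell proteases. Ctsg and Mcpt4 were below both limits, and Mcpt8 read 44.1 units in DX5- cells, below the limit, and 124 units in DX5+ cells. Cma1, the chymase gene at the other edge of that protease group and outside those flanking genes, read 476 units in DX5- cells and 6468.5 units in DX5+ cells, 13.6-fold lower in DX5- cells.

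**Figure D3:**
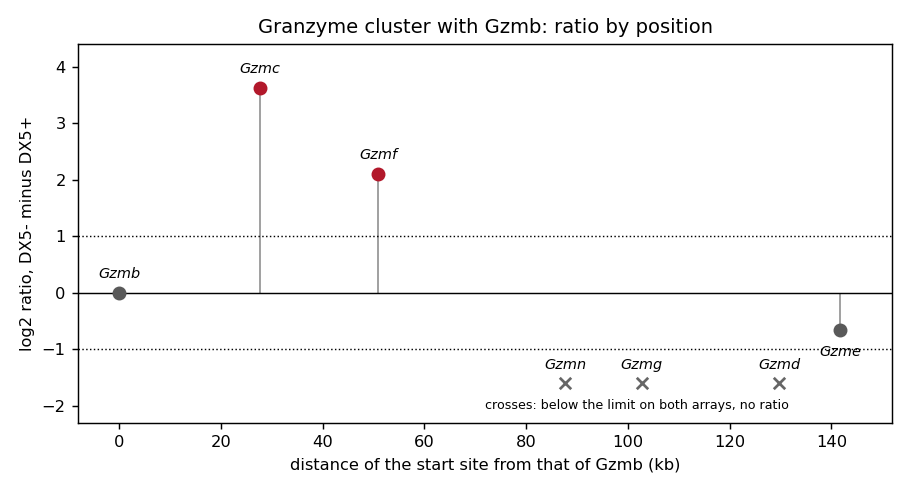
Log2 ratio of intensities, DX5- minus DX5+, of the granzymes of the chromosome 14 cluster against the distance of their start sites from that of Gzmb in kb; crosses mark genes below the limit on both arrays, which have no ratio, and dotted lines mark 2-fold. Gzmc (27.7 kb) and Gzmf (50.9 kb) stand above 2-fold, Gzmb at 0 and Gzme (142 kb) between the lines.

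Because Gzmc and Gzmf read higher together while Gzmb and Gzme did not, the promoter sequences of these genes are shown. They are 300 bases from RefSeq (GRCm38.p6), 250 before and 50 after the start site, all on the minus strand and printed 5′ to 3′: Gzmc at chr14:56234608-56234907, Gzmf at chr14:56211358-56211657, Gzme at chr14:56120576-56120875 and Gzmb at chr14:56262285-56262584. Capitals mark runs of at least 12 bases that the promoters of Gzmc, Gzmd, Gzme, Gzmf and Gzmg share letter for letter.
Gzmc: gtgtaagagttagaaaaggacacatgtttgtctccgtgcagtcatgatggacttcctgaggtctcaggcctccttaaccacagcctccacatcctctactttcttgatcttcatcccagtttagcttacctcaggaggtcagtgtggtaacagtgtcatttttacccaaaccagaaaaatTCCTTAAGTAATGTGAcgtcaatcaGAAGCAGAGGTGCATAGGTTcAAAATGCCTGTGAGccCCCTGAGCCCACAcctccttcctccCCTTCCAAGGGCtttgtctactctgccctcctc
Gzmf: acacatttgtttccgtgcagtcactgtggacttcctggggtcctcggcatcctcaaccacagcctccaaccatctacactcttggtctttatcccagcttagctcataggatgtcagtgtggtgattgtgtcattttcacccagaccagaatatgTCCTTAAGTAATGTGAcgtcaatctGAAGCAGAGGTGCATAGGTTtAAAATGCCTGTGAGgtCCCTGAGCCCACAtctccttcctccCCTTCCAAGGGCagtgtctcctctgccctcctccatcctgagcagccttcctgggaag
Gzme: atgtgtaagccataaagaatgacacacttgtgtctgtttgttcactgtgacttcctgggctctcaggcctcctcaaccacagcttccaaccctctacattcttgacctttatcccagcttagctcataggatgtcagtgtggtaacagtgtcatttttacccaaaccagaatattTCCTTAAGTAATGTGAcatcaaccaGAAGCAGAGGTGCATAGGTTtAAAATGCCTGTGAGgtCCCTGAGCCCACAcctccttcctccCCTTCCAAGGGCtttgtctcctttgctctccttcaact
Gzmb: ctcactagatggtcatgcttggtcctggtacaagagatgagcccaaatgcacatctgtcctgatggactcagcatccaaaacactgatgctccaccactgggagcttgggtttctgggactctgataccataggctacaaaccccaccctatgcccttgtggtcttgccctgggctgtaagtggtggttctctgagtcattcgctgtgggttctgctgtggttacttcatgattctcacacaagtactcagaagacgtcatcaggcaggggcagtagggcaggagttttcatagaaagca

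The promoters of Gzmc, Gzmd, Gzme, Gzmf and Gzmg were close copies of each other. In best local alignments their 10 pairs shared 244 to 280 identical bases over 273 to 297 aligned positions, and Gzmc and Gzmf shared 244 over 273. They held 5 common runs of 12 to 20 bases, the first starting 70 bases before the start site in Gzmc and 95 before it in Gzmf. The promoter of Gzmb, 27.7 kb away, had none of these runs and shared 8 to 24 identical bases with any of the 5. Promoters this alike stood before genes whose probe sets read 12.3-fold and 4.31-fold higher (Gzmc and Gzmf), 1.59-fold lower (Gzme, near the limits) or below the limit (Gzmd and Gzmg). The probe sequences were not used here, and the part of cross-hybridisation between these paralogues in the Gzmf reading was not tested.

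**Figure D4:**
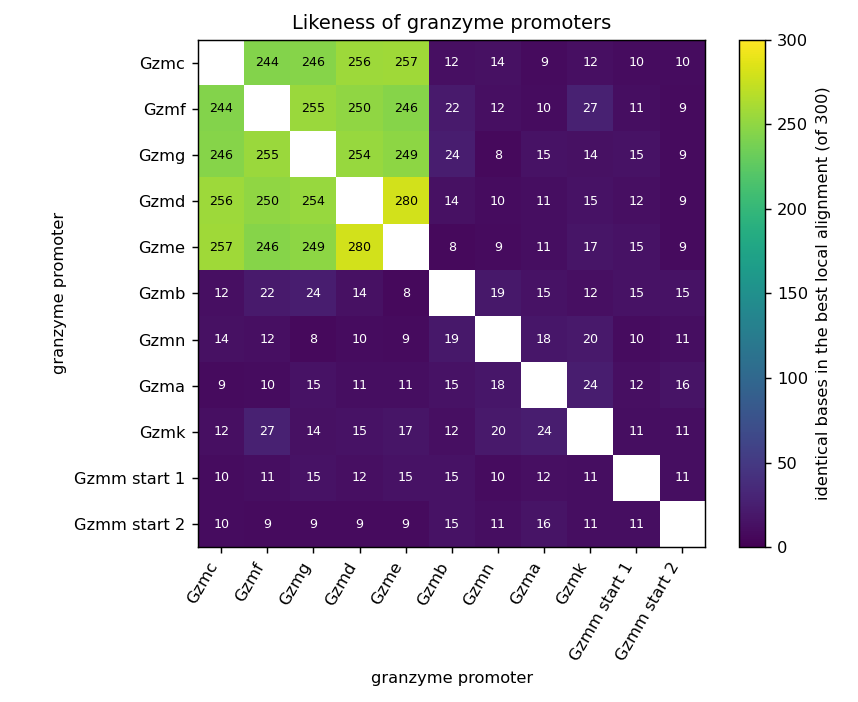
Number of identical bases in the best local alignment between each pair of the 11 granzyme promoter windows of 300 bases (Gzmm has 2 start sites); the diagonal is left blank. The block of Gzmc, Gzmf, Gzmg, Gzmd and Gzme holds 244 to 280 identical bases, and all pairs of different granzymes outside it hold 8 to 27.

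Short binding motifs were counted on both strands of the promoter windows, as a description of letters and not of binding. The Runx motif TGTGGT was in 8 of 11 granzyme windows, against 16.8% of all 32851 windows. The motif occurred 2 times each in Gzmb, Gzmc, Gzmd, Gzme, Gzmf and Gzmg, and once each in Gzma and the first start of Gzmm. The windows of Gzmc, Gzmd, Gzme, Gzmf and Gzmg are close copies, so their matches are not independent counts. The T-box core GGTGTGA, the letters read by the factors T-bet and Eomes, was in Gzmk and the second start of Gzmm and in 3.98% of all windows. The AP-1 motif TGANTCA was in Gzmb alone (7.81% of all windows) and the STAT motif TTCNNNGAA in Gzmb and the first start of Gzmm (8.30%). In Gzmb the STAT match lay after the start site. The half-site ACGTCA of the cyclic AMP response element was added after the sequences were read. It occurred as 2 overlapping matches, 1 on each strand, in Gzmc, Gzmf and Gzmg. Gzmb held 1 match, which began after its start site, but Gzmd and Gzme held none. At least 1 match was in 7.51% of all windows, and the share with 2 overlapping matches was not counted.

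Other genes around the granule pathway were read in 7 lists, which include transcription factors and the protease genes beyond Gzme. Of 47 detected genes, 3 read 2-fold or more higher (6.38%) and 8 read 2-fold or more lower (17.0%) in DX5- cells, beside 3.76% and 5.66% of all detected genes. The genes past 2-fold were spread over 5 of the lists. The transcription factors gave 2 of the higher and 3 of the lower genes, and the protease genes beyond Gzme gave 1 of the lower. The 47 genes had a median log2 ratio of -0.10 beside -0.016 for all detected genes. Prf1, the perforin gene, read 3108 units in DX5- cells and 8978 units in DX5+ cells, 2.89-fold lower in DX5- cells. Srgn, the core protein of serglycin, read 29759 units in DX5- cells and 31906 units in DX5+ cells. Lamp2 and Lamp1, membrane proteins of lysosomes and granules, had log2 ratios of -0.85 and -0.58, and Nkg7 one of -0.26.

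Among 8 detected genes that process and sort granzymes, 2 lay past 2-fold, both lower in DX5- cells, beside 5.66% of all detected genes. Ctsc, the cathepsin that trims granzyme precursors, read 5982 units in DX5- cells and 6659 units in DX5+ cells. Ctsh, another cathepsin able to do so, read 250 units in DX5- cells and 673 units in DX5+ cells, 2.69-fold lower. Gnptab, a subunit of the enzyme that starts the mannose 6-phosphate tag for lysosomes and granules, read 1247 units in DX5- cells and 3742 units in DX5+ cells, a log2 ratio of -1.59. Cst7, an inhibitor of cathepsin C, was 1.43-fold higher and Igf2r, a mannose 6-phosphate receptor, 1.43-fold lower.

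Genes of granule traffic and release had 0 of 10 members past 2-fold, beside 9.42% of all detected genes; lists this short do not set their share apart from that one. The widest apart were Unc13d (log2 ratio 0.89), Vamp8 (0.58), Rab27a (-0.51) and Lyst (0.49), which act in granule docking, priming and fusion. Substrates of granzymes and members of the SET complex, a target of granzyme A, had 0 of 9 past 2-fold, beside the same 9.42%; Nme1, a nuclease of that complex, was 1.79-fold higher.

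Granzyme inhibitors and their paralogues went both ways. Serpinb9, the inhibitor of granzyme B, read 16823 units in DX5- cells and 15316 units in DX5+ cells. Its paralogue Serpinb9b read 481 units in DX5- cells and 4706 units in DX5+ cells, 9.79-fold lower in DX5- cells. Serpinb6a was 2.10-fold higher and Serpinb6b 1.38-fold higher, while Serpinb9c, Serpinb9d and Serpinb9g were below both limits.

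Another list held 9 genes with known actions on granzyme or perforin genes, all transcription factors except the receptor gene Notch2. Of these, 2 lay past 2-fold on the higher side and 3 on the lower side, against 3.76% and 5.66% of all detected genes. Eomes read 1991 units in DX5- cells and 16107 units in DX5+ cells, 8.09-fold lower in DX5- cells, while the related Tbx21, the T-bet gene, read 9474.5 units in DX5- cells and 7704 units in DX5+ cells. Junb was 2.90-fold and Jun 2.33-fold higher, and Stat5a 2.33-fold and Stat5b 2.21-fold lower.

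**Figure D5:**
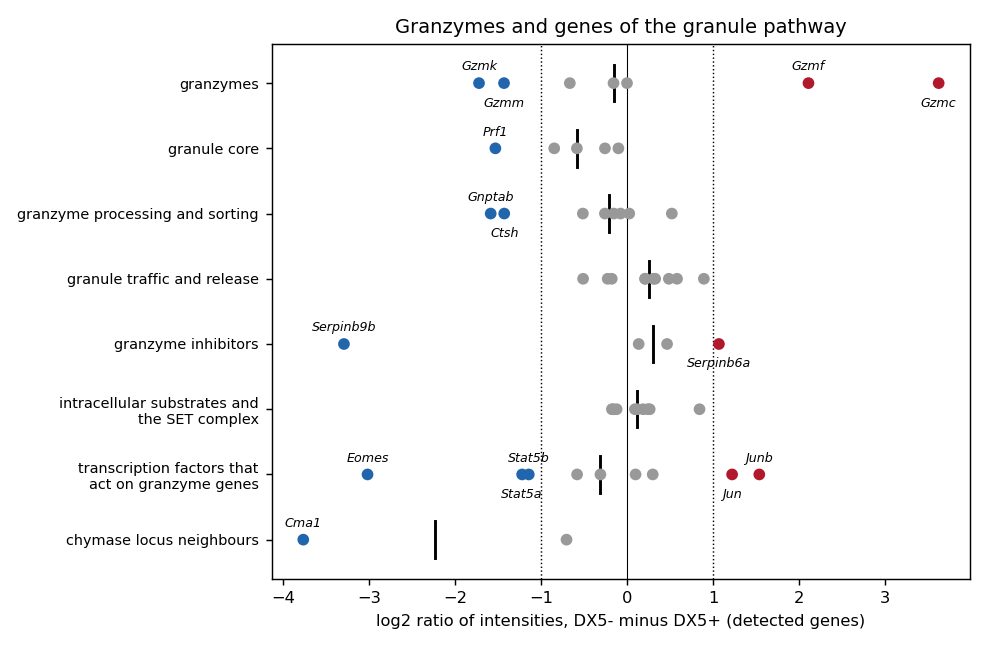
Log2 ratio of intensities, DX5- minus DX5+, of the detected granzymes and of the detected genes in 7 lists around the granule pathway. Each point is 1 gene, coloured and named where at least 2-fold apart, and the black bars are list medians. Granzymes reach from -1.72 to 3.62, while all points of granule traffic and release and of the substrates lie within the dotted lines at 2-fold.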

How the data were processed

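Gene expression was measured on 1 array of DX5- and 1 array of DX5+ liver NK cells. The authors made the deposited linear intensity values with MAS5, per the submitters' processing notes; its version is not stated there. Probe sets were named from the platform annotation (34958 with 1 gene symbol), and 34754 matched the RefSeq gene table (GRCm38.p6) by gene ID. The deposited intensities were used on the log2 scale without an offset or further scaling. A gene was represented by its brightest own probe set, which gave 18194 genes, of which 10637 were detected: 9356 in both populations, 629 in DX5- cells alone and 652 in DX5+ cells alone. A value below the limit on 1 array was set to that limit, and the fold is then written "at least". The number of arrays limits the precision; with n = 1 per population no test was made.

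The members, lists and rules were chosen with earlier results of these data known. All 10 granzymes were named, with up to 4 detected genes per list of largest ratio and a few fixed ones. Genes named beside these are marker genes, flanking genes and genes of lists below the limits. For the detection limit, only lens crystallins were used, since Crybg1 to Crybg3 and Cryab are not confined to the lens; this was decided after the data were seen. Promoters were aligned locally with Biopython 1.88 (match 2, mismatch -3, gap opening -5, gap extension -2). Counting past 2-fold was tested on simulated data. Other scalings, limits and probe set rules were tried. Python 3.11.15, numpy 2.4.6 and pandas 2.3.3 were used.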

Additional observations from a re-analysis of the deposited data

How the results depend on the processing

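The counts of granzymes at least 2-fold higher (2) and lower (2) in DX5- cells kept their values under median centring, quantile normalization, spike-in scaling, both other limits, both other probe set rules, and with the shared probe set counted; without any limit 4 were lower, since Gzmd and Gzmn then entered. With no limit the granule lists had 13 genes lower, and all genes 1888 higher and 2838 lower. With spike-in scaling 5 granule list genes were higher, and 718 genes were higher and 384 lower overall; the median of all detected genes was then 0.20, against 0.12 with median centring and -0.016 as deposited. The granzyme median lay between -0.41 (no limit) and 0.072 (spike-in scaling). At the 99th percentile, limits of 141 units (DX5- array) and 123 units (DX5+ array) gave log2 ratios of 1.71 for Gzmf, -1.01 for Gzmk and -0.034 for Gzme, as bounds. When Crybg and Cryab probe sets were counted for the limit, an alternative chosen after seeing the data, Gzmf gave 1.91 and Gzmk -1.53 as bounds. Gzmc lay between 3.60 and 3.85 and Gzmm between -1.43 and -1.20 under every scaling and limit tried. No paired analysis was possible because each population had 1 array, and no replicate could be left out.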
